A study of Homo sapiens with 13 samples.

Results

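The MYC window, the 500 kb on either side of the hg19 start of MYC (chromosome 8, position 128748315, plus strand), held 75 of the 50467 peaks in the 4 peak lists of the series. They were chosen by position alone: a peak was a member where its summit, the base of highest signal, lay inside the window. The lists come from chromatin immunoprecipitation and sequencing (ChIP-seq) of MDA-MB-231, an established human breast cancer cell line, with no treatment named in the labels. The 13 libraries comprised 2 replicates each with antibodies to YAP, TAZ (labelled WWTR1), TEAD4 and JUN, and 5 with control IgG, 2 of rabbit and 3 of mouse origin. Each factor has 1 list, made by the authors from both of its replicates against pooled IgG, with no values per replicate. The values below therefore have no replicate spread, no test between conditions could be made, and the read depth behind them is unknown here.

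MYC encodes a transcription factor that drives cell growth and division and is deregulated in many cancers. It lies in a gene-poor stretch of chromosome 8 and is known for control by enhancers far from its promoter. YAP and TAZ are coactivators held back by the Hippo pathway. They do not bind DNA themselves and reach it through partners such as the TEAD proteins, of which TEAD4 is one. JUN is a subunit of AP-1, a transcription factor that often binds enhancers beside TEAD proteins. In the RefSeq gene order (GRCh38.p14, used for names only) the genes next to MYC are the long noncoding RNA genes CASC11 before it and PVT1 after it. No gene annotation of hg19 was used, so whether a site lies in an exon, an intron or between genes is not given. Sequences of the sites are not shown.

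None of the 4 factors had a listed peak at the MYC promoter, taken as 2 kb on either side of the start, so all 12 YAP, 16 TAZ, 14 TEAD4 and 33 JUN peaks of the window were distal. The nearest listed summit was that of a JUN peak 7108 bp downstream (128755076 to 128755861). It was 14.6-fold enriched over IgG, the authors' ratio for each peak, and stood at percentile 71.5 of the JUN list, where 100 is the most enriched peak. Percentiles are by enrichment unless stated to be by p, the other measure of strength in the lists. This site held none of the other 3 factors. The nearest TAZ summit lay 67465 bp and the nearest TEAD4 summit 67500 bp downstream, in a shared site where both ranked low, at percentiles 14.7 and 31.7 (29.5 and 42.6 by p). YAP first appeared 74218 bp downstream, at percentile 90.3.

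The peaks were mostly downstream of the gene. On the downstream side lay 11 YAP, 15 TAZ, 12 TEAD4 and 27 JUN peaks, and on the upstream side 1 YAP, 1 TAZ, 2 TEAD4 and 6 JUN peaks. The start of MYC therefore stood inside a long stretch without listed YAP, TAZ or TEAD4 peaks. The YAP stretch ran from 441 kb upstream to 74.2 kb downstream (515 kb), the TAZ stretch spanned 509 kb and the TEAD4 stretch 506 kb. Gaps at least as long made up 20.5% of the gaps between neighbouring YAP peaks of the genome, 15.8% for TAZ and 19.0% for TEAD4. These are shares of the number of gaps. A fixed point falls in long gaps more often than that, since they cover more of the genome. Between the TEAD4 peaks that bound the shortest of these stretches, JUN had 4 sites of its own, 428 kb, 257 kb and 67.4 kb upstream and 7.11 kb downstream. The 3 upstream ones were weak (9.42-, 6.53- and 7.47-fold, percentiles 24.7, 1.20 and 5.45, and 23.1, 9.63 and 10.0 by p).

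**Figure D1:**
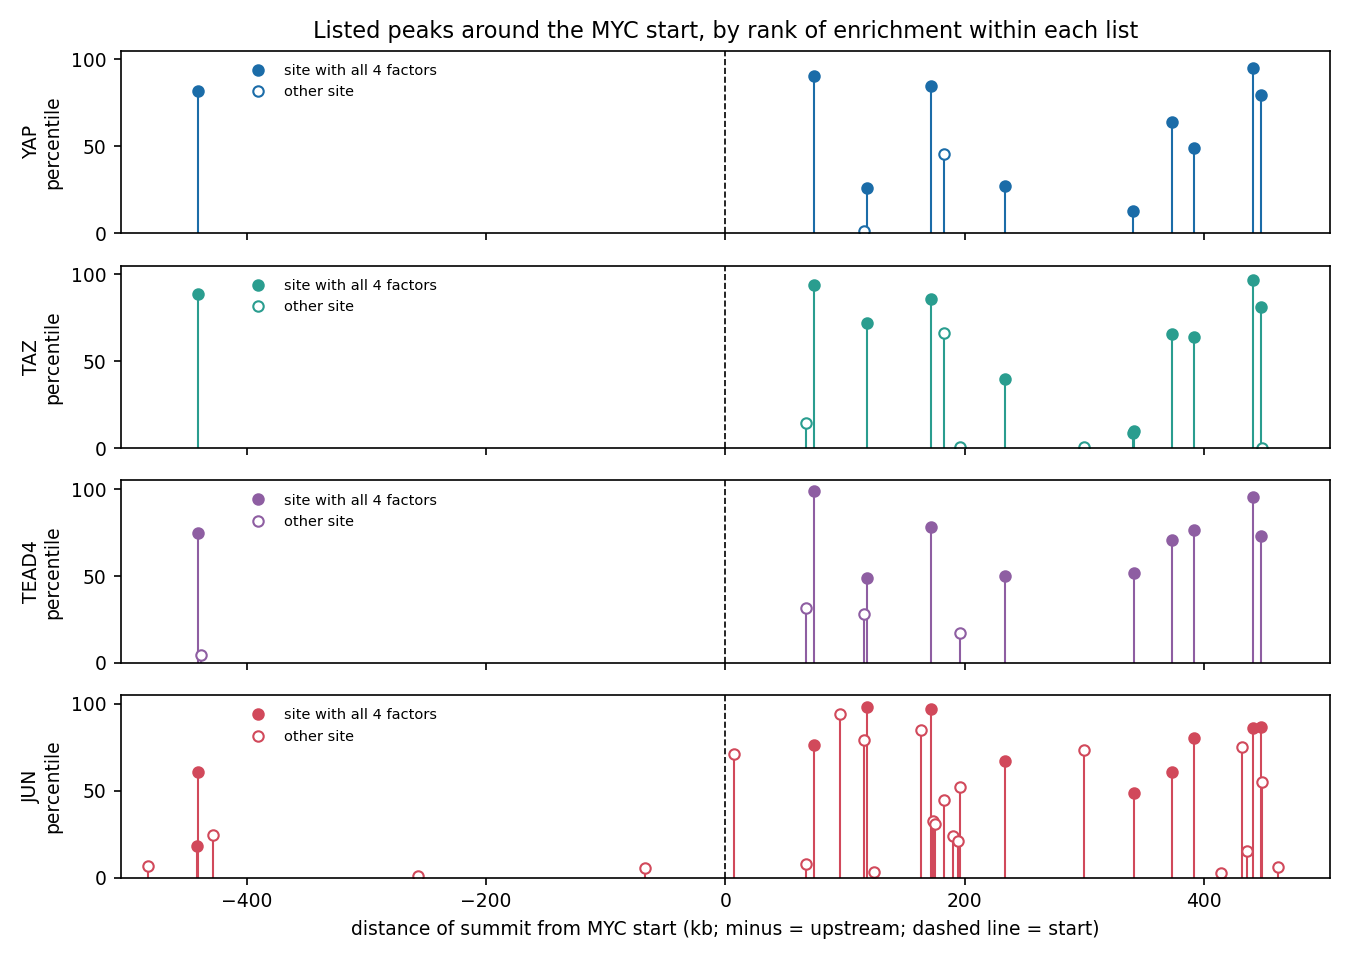
Each line is 1 listed peak, placed by the distance of its summit from the MYC start in kb (x axis, minus is upstream) with its percentile of enrichment within its own list as height (y axis). Filled circles mark sites with all 4 factors; 9 of these 10 sites lie downstream, and no peak stands within 2 kb of the start.

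The lists alone do not show a lack of signal where no peak is listed. The numbers in the peak names rise along every chromosome in all 4 lists, and gaps between them were read as candidate peaks that did not enter the list. On that reading at most 7 YAP, 9 TAZ and 6 TEAD4 candidates lay unlisted in the stretch around the start. Between the JUN peaks on either side of the start, 67.4 kb upstream and 7.11 kb downstream, at most 10 JUN candidates lay unlisted. Where these candidates stood, and whether any was at the promoter, is not known here. Over the window, 37.5% of the YAP numbers spanned were listed (21.8% over the whole list), 37.2% of the TAZ numbers (22.4%), 40.0% of the TEAD4 numbers (29.9%) and 41.8% of the JUN numbers (25.4%).

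The window held more peaks per Mb than the genome as a whole in every list. There were 12.0 YAP peaks per Mb, against 2.51 over chromosome 8 and 2.64 over all chromosomes. TAZ reached 16.0 per Mb, against 3.15 and 3.35, and TEAD4 14.0, against 2.69 and 2.88. JUN reached 33 per Mb, against 8.08 over chromosome 8 and 8.40 over all chromosomes. Of 2605 fixed 1-Mb bins of the genome that held any peak, 32 had as many YAP peaks or more (1.23%), 21 as many TAZ (0.806%), 26 as many TEAD4 (0.998%) and 23 as many JUN peaks (0.883%). The median bin held 2 YAP, 3 TAZ, 2 TEAD4 and 8 JUN peaks. These are descriptions: the locus was picked with earlier results of these lists in view.

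**Figure D2:**
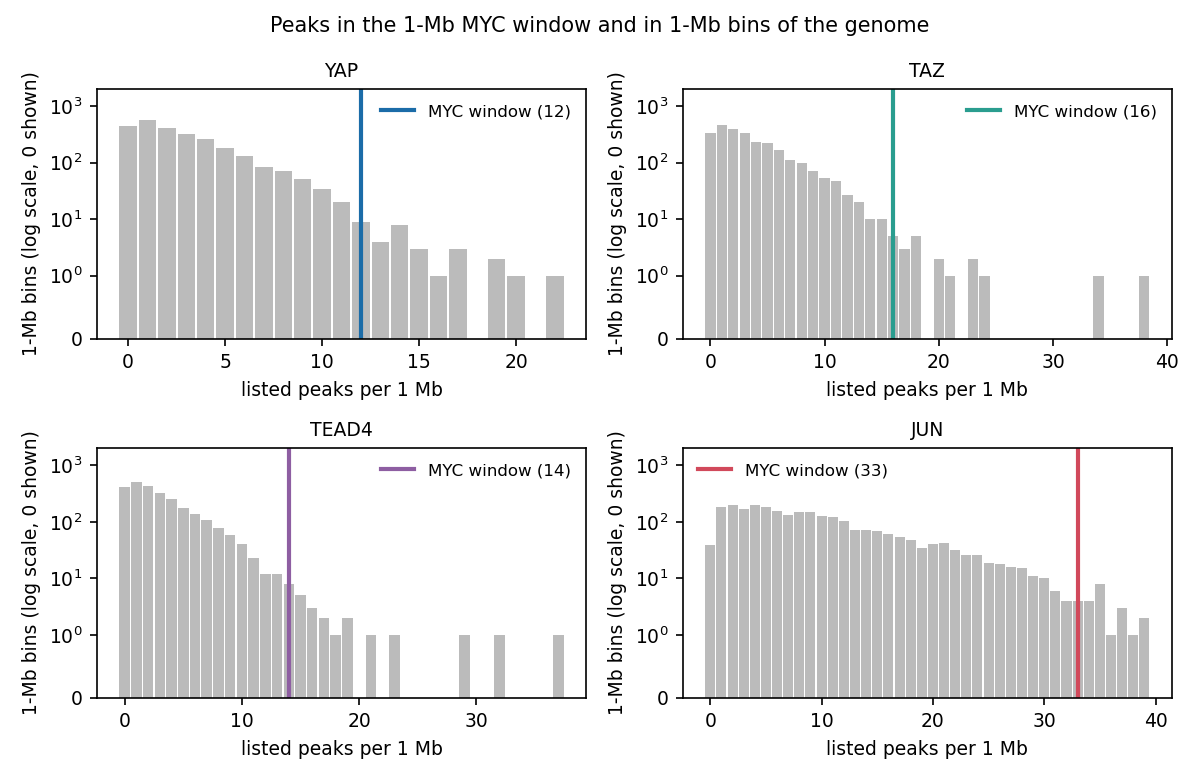
Grey bars count the 1-Mb bins of the genome (y axis, log scale with 0 shown) by how many listed peaks of a factor they hold (x axis). The coloured line marks the MYC window, which lies in the upper tail of all 4 distributions: 12 YAP, 16 TAZ, 14 TEAD4 and 33 JUN peaks against bin medians of 2, 3, 2 and 8.

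Overlapping peaks of the 4 lists, joined where they shared at least 1 bp, gave 33 sites in the window, 27 downstream and 6 upstream of the start. All 4 factors were present at 10 of them (30.3%, exact binomial 95% interval 15.6 to 48.7), against 15.2% of the 28100 regions of the series. JUN alone accounted for 16 (48.5%, 30.8 to 66.5), against 58.0% over the series. With every list shortened to its 7709 strongest peaks by p, JUN alone accounted for 5 of 20 sites, against 27.8% over the series. Such intervals cover counting error only, and neighbouring sites are not independent. Of the window's peaks, 10 of 12 YAP peaks lay in 4-factor sites (56.6% of the whole YAP list did), 11 of 16 TAZ peaks (44.6% of the list), 10 of 14 TEAD4 peaks (52.0%) and 11 of 33 JUN peaks (17.5%).

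JUN was at nearly every site that held another factor. It was present at 16 of the 17 sites with YAP, TAZ or TEAD4 (94.1%), against 69.8% of such regions over the series. The JUN list is the longest. With every list shortened to its 7709 strongest peaks by p, a setting added after seeing the data, JUN was present at 11 of 15 such sites (73.3%), against 34.9% over the series. All 12 YAP peaks and all 16 TAZ peaks shared a site with JUN, where 77.0% of YAP and 74.8% of TAZ peaks of the whole lists did so. Of the 14 TEAD4 peaks, 13 did (92.9%, against 68.5%). Sharing a site means that peaks were joined by overlap, not that summits coincide. At the site 116 kb downstream the JUN summit lay 491 bp from those of YAP and TEAD4. With sites joined by summits within 200 bp, JUN alone accounted for 18 of 36 sites, against 58.0% over the series. The shares with JUN were not recomputed under that rule. YAP and TAZ shared sites about as often as in the whole lists: 11 of 12 YAP peaks shared a site with TAZ (91.7%, against 92.5%) and 12 of 16 TAZ peaks with YAP (75.0%, against 73.0%). Shares with TEAD4 were above those of the whole lists, at 11 of 12 YAP peaks (91.7%, against 75.1%) and 13 of 16 TAZ peaks (81.2%, against 67.6%). In turn 11 of 14 TEAD4 peaks shared a site with YAP (78.6%, against 69.0%) and 12 with TAZ (85.7%, against 79.0%). These shares of YAP, TAZ and TEAD4 peaks rest on 12 to 16 peaks each and have no interval here. Their differences from the whole lists were not tested. No site held YAP, TAZ and TEAD4 without JUN, a set found at 4.30% of all regions; none of 33 allows a share of up to 10.6% (upper end of the 95% interval).

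The 10 sites with all 4 factors are described in order along the chromosome. The only upstream one lay 441 kb before the start (128306214 to 128308027). YAP was enriched 10.7-fold there, TAZ 12.0-fold, TEAD4 9.56-fold and JUN 13.0-fold. TAZ ranked highest there, at percentile 88.4, and JUN lowest, at 60.8. A further, weaker JUN peak (8.83-fold) lay at the edge of the same site.

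The nearest 4-factor site to MYC was 74.2 kb downstream (128821321 to 128823216). YAP was enriched 13.0-fold, TAZ 14.6-fold, TEAD4 20.5-fold and JUN 15.5-fold. TEAD4 stood at percentile 98.9, rank 96 of 8406 peaks and the highest TEAD4 rank of the window by enrichment. By p this TEAD4 peak had rank 98, behind the TEAD4 peak 441 kb downstream at rank 91. YAP and TAZ also ranked high in their lists, at percentiles 90.3 and 94.0, and JUN lower, at 76.2. Its 4 summits fell within 9 bp, the tightest set of the window.

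The order of the factors was different at the site 118 kb downstream (128866054 to 128867697). JUN was enriched 24.8-fold, at percentile 98.1 (rank 479 of 24554) and the highest JUN rank of the window. TAZ stood at percentile 72.0 (8.90-fold), TEAD4 at 49.2 (7.16-fold) and YAP at 26.0 (6.11-fold). By p, YAP stood at percentile 51.0 and JUN at 99.7. This was the widest difference of ranks among the 10 sites, 72.1 points.

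The site 172 kb downstream (128919481 to 128920591) ranked high for all factors. JUN was 23.7-fold enriched (percentile 97.2), YAP 11.3-fold (84.6), TAZ 11.2-fold (86.0) and TEAD4 10.1-fold (78.3). Farther out, enrichment was lower. At 233 kb (128980849 to 128982525) YAP stood at percentile 27.5 and TAZ at 39.8, below TEAD4 at 50.2 and JUN at 67.2. By p all 4 peaks of that site were in the upper part of their lists, with YAP at percentile 62.4, TAZ at 69.4, TEAD4 at 61.8 and JUN at 82.2. At 341 kb (129088721 to 129090461) YAP and TAZ were low in their lists, at percentiles 12.7 and 10.1 (33.1 and 24.0 by p), with TEAD4 at 51.9 and JUN at 48.9 (60.6 and 66.6 by p).

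Ranks were higher again beyond that. At 373 kb (129120899 to 129122012) they lay between percentiles 60.8 for JUN and 70.7 for TEAD4, the narrowest range of the 10 sites by enrichment (9.92 points). By p they lay between 77.1 and 82.9, a wider range than at the site 441 kb downstream (97.9 to 99.0). The site at 392 kb (129139453 to 129140579) had YAP at percentile 49.1, TAZ at 63.7, TEAD4 at 76.6 and JUN at 80.5.

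The highest mean rank belonged to the site 441 kb downstream (129188551 to 129189993), nearly as far from MYC as the upstream one. It carried the most enriched YAP peak of the window (15.7-fold, rank 373 of 7709) and the most enriched TAZ peak (16.6-fold, rank 348 of 9798). TEAD4 was 15.6-fold enriched (percentile 95.2) and JUN 17.8-fold (86.0). A last 4-factor site followed 6.51 kb farther on, 447 kb from the start (129195001 to 129196032), with YAP at percentile 79.4, TAZ at 81.4, TEAD4 at 72.8 and JUN at 86.9. Distance from MYC thus did not order the sites by rank. YAP stood at percentiles 90.3, 84.6 and 95.2 at 74.2 kb, 172 kb and 441 kb downstream (96.2, 93.2 and 98.2 by p), and its lowest rank among the 10 sites was at 341 kb by either measure. Of the 42 peaks in these sites, 41 ranked higher by p than by enrichment, as did 73 of all 75 peaks of the window. The same count was not made over the whole lists, so whether the window differs from them in this is not known here.

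**Figure D3:**
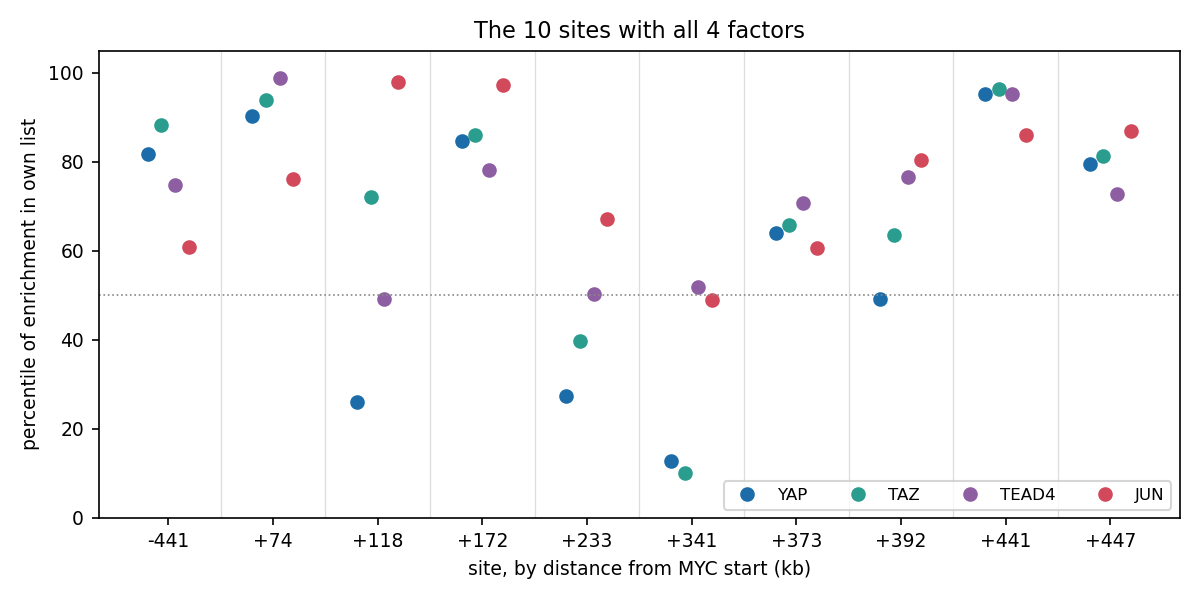
Percentile of enrichment within the own list (y axis, 100 is the strongest peak) of YAP, TAZ, TEAD4 and JUN at each of the 10 sites with all 4 factors, ordered by distance from the MYC start in kb (x axis); the dotted line is the list median. Where a site held more than 1 peak of a list, the most enriched is shown. JUN is far above YAP at 118 kb (98.1 against 26.0), and TEAD4 is above JUN at 74 kb (98.9 against 76.2).

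YAP and TAZ share a sequencing run and IgG controls, by the raw file names and labels, and the names of TAZ peaks bear the letters YAPTAZ, whose meaning no label states. TEAD4 and JUN were sequenced and controlled separately from them, so run, control and factor cannot be told apart.

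Summits lay close together at 7 of the 10 sites, within 100 bp over all 4 factors (70.0%, against 83.4% of the 4284 regions). The median spread was 62.5 bp (range 9 to 841), against 48 bp over the series. At the site 441 kb downstream the JUN summit stood 218 bp from that of TEAD4, and at the site 118 kb downstream 124 bp, while YAP and TEAD4 were 12 and 21 bp apart there. The widest spread, 841 bp at 341 kb, came from a broad site with 2 TAZ peaks. Its YAP summit lay 41 bp from one of them, and the TEAD4 and JUN summits lay 26 bp from each other beside the other.

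**Figure D4:**
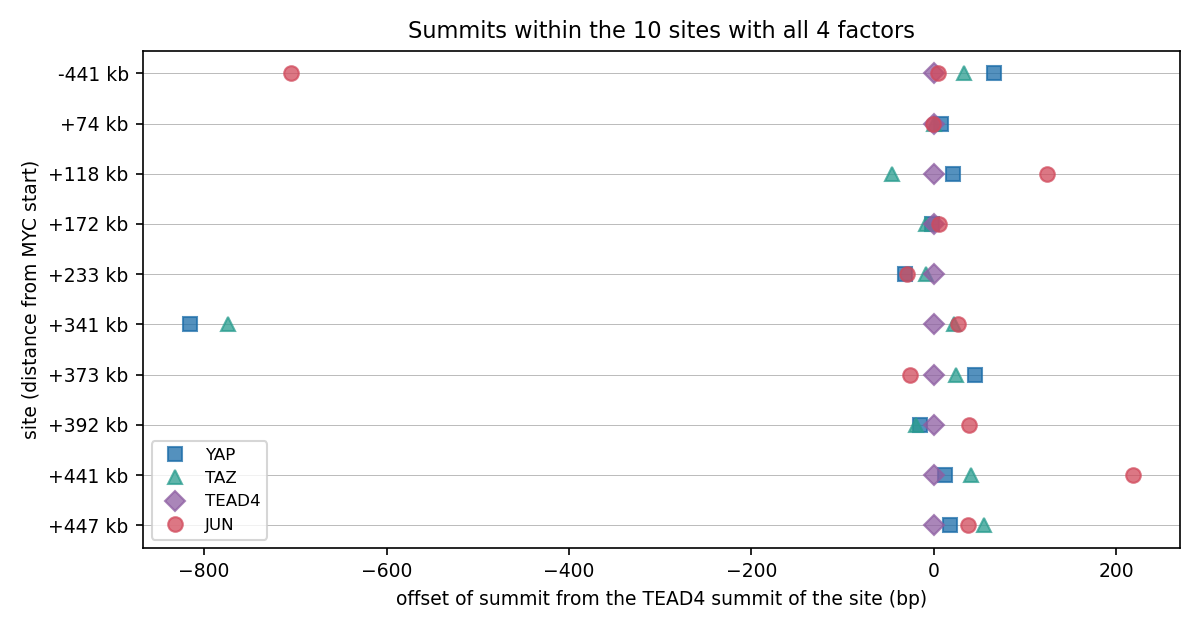
Position of every listed summit in the 10 sites with all 4 factors, as the distance in bp from the TEAD4 summit of the same site (x axis); sites run down the page by distance from the MYC start. The JUN summit stands apart at 118 kb (124 bp) and 441 kb (218 bp) downstream, and at 341 kb the YAP summit lies 815 bp from that of TEAD4. The second JUN summit of the upstream site also stands apart.

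In each list the window's peaks in 4-factor sites had a higher median rank than its other peaks, as in the whole lists, though the ranges overlapped for YAP, TAZ and JUN. The median percentile of YAP was 71.7 over the 10 peaks inside 4-factor sites and 23.4 over the 2 others. TAZ had 72.0 over 11 and 0.949 over 5, TEAD4 73.8 over 10 and 22.6 over 4, and JUN 76.2 over 11 and 27.8 over 22. Over the whole lists the same medians were 62.1 and 36.7 (YAP), 69.3 and 35.1 (TAZ), 62.8 and 37.4 (TEAD4), and 69.0 and 45.9 (JUN). Over all its peaks the window had a median percentile of 56.6 in the YAP list (order-statistic 95% interval 26.0 to 84.6), 64.8 in the TAZ list (8.91 to 86.0), 61.3 in the TEAD4 list (28.1 to 78.3) and 52.2 in the JUN list (23.8 to 73.7). These intervals treat the peaks of 1 locus as independent, which neighbouring peaks are not, and hold no replicate spread. By p the medians were higher, 77.5 (YAP), 79.5 (TAZ), 69.9 (TEAD4) and 67.6 (JUN). Peaks were also wide: YAP peaks had a median width of 942.5 bp against 554 bp over the list, TAZ peaks 824.5 bp against 587 bp, TEAD4 peaks 736 bp against 503.5 bp, and JUN peaks 1112 bp against 730 bp. All 12 YAP, 13 of 16 TAZ, 11 of 14 TEAD4 and 26 of 33 JUN peaks were wider than the median of their list.

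Of the 33 sites, 6 held JUN with 1 or 2 of the other factors (18.2%, against 14.1% over the series). TAZ and TEAD4 without YAP, a set of 2.04% of all regions, occurred with JUN at 67.5 kb (128815580 to 128815999) and 196 kb (128943307 to 128944576) downstream. TAZ ranked low at both, 5.22- and 3.94-fold (percentiles 14.7 and 0.612, and 29.5 and 1.83 by p). A site 116 kb downstream (128863319 to 128865162) held YAP, TEAD4 and JUN without a listed TAZ peak, a set found at 0.427% of all regions. Its JUN summit lay 491 bp from the summits of YAP and TEAD4, which coincided. Its YAP peak was the weakest of the window (4.45-fold, percentile 1.43, and 8.99 by p), and at most 4 TAZ candidates lay unlisted between the TAZ peaks on either side. YAP, TAZ and JUN without TEAD4 (4.44% of all regions) occurred at 183 kb (128929639 to 128932055), with YAP at percentile 45.4, TAZ at 66.2 and JUN at 44.6 (72.1, 81.4 and 67.6 by p), and at most 3 unlisted TEAD4 candidates between the flanking TEAD4 peaks.

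TAZ with JUN alone (3.98% of all regions) occurred at 299 kb (129047123 to 129047954) and 449 kb (129196626 to 129197492) downstream. Both TAZ peaks stood near the end of their list, 4.09- and 3.65-fold (percentiles 0.949 and 0.214, and 5.89 and 2.30 by p), while JUN was at percentiles 73.7 and 55.2. At most 1 and 3 YAP candidates lay unlisted between the YAP peaks that flank these 2 sites. TEAD4 alone (3.04% of all regions) was listed once, 438 kb upstream (128309879 to 128310399, 4.75-fold, percentile 4.48, and 15.9 by p).

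The 16 JUN-only sites, 12 downstream and 4 upstream, ranked low by enrichment in most cases. Their JUN enrichment had a median of 9.25-fold (range 6.53 to 21.1) and a median percentile of 22.6, against 43.1 over all JUN peaks in JUN-only regions. By p the median percentile was 37.5, against 41.8, and 7 of the 16 stood above percentile 50. JUN peaks of the 4-factor sites had a median of 15.5-fold (range 8.83 to 24.8). The ranges overlapped, and 4 of the 16 JUN-only peaks stood above percentile 50 by enrichment. These were the peak 7.11 kb downstream described above and those at 95.7 kb (128843518 to 128844792, 21.1-fold, percentile 94.1), 163 kb (128910808 to 128912192, 17.5-fold, 85.0) and 432 kb (129179596 to 129180972, 15.2-fold, 75.0). Around the strongest, at 95.7 kb, at most 3 YAP, 4 TAZ and 4 TEAD4 candidates lay unlisted between the flanking peaks. Upstream at 482 kb, no YAP candidate number was missing between the flanking YAP peaks, so on that reading no YAP candidate stood at this JUN-only site.

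**Figure D5:**
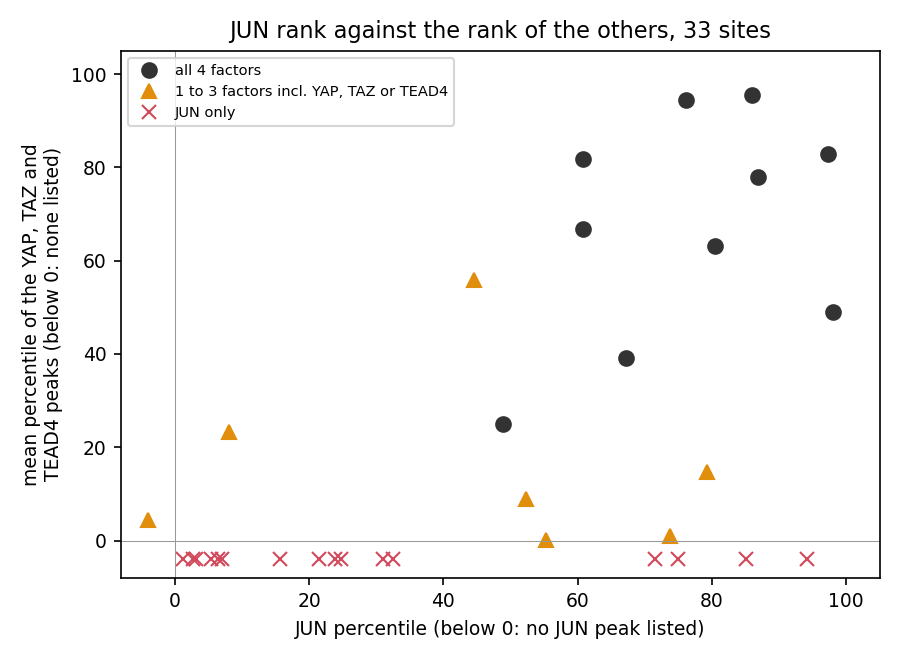
Each point is 1 of the 33 sites, placed by the percentile of its JUN peak (x axis) and the mean percentile of its YAP, TAZ and TEAD4 peaks (y axis), each within its own list; points below 0 had no listed peak. The 16 JUN-only sites form the bottom row, with 4 at JUN percentiles of 71.5 and above.

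The outermost members were JUN peaks 482 kb upstream (7.71-fold) and 462 kb downstream (7.61-fold). Just outside, a site 511 kb upstream held YAP (7.40-fold), TAZ (8.76-fold), TEAD4 (4.90-fold) and JUN (15.6-fold). On the downstream side the first outside were JUN at 516 kb (6.46-fold) and YAP, TAZ and TEAD4 at 523 kb (5.44-, 5.13- and 4.78-fold).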

How the data were processed

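YAP, TAZ, TEAD4 and JUN were immunoprecipitated from MDA-MB-231 chromatin. The submitters' processing notes name build hg19, MACS2 2.0.10, Bowtie 0.12.7, CASAVA and SAMtools; peaks were called in the IDR framework against pooled IgG, per the labels. The deposited enrichment is a ratio over IgG and the deposited p is its −log10 p-value, both the authors' own per peak. The deposited score and q-values were not used. Values of different lists are not on 1 scale, so peaks were ranked within their list. Summits and regions are 1-based.

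Peaks overlapping by at least 1 bp were joined over the whole genome (Python 3.11.15, pandas 2.3.3, scipy 1.17.1; joining was tested on simulated data). A site entered when a summit lay within 500 kb of the start. Densities per Mb use the span covered by the lists on each chromosome. Candidate counts assume that the numbers in peak names count all candidates. The locus, sites and thresholds were chosen with earlier results of these data known. Named sites are all 4-factor sites, the nearest and most enriched peak of each list, and others by counts; single sites of smaller sets were named after their values were seen. Alternatives changed the window, promoter width, overlap rule, list length and ranking measure.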

Additional observations from a re-analysis of the deposited data

How the results depend on the processing

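Of 102 alternative values for 28 results, 68 stayed within 1.5 times of a count or within the interval or peak width of a value. The other 34 moved beyond that. A change of direction could be seen only in the nearest distances, and none of those changed sign. The promoter count was 0 for all 4 lists with 1 kb and with 5 kb. It was also 0 with lists of equal length (7709 peaks) and with the stronger 50% of each list. These counts were fixed in advance, since the nearest summit of the full lists lay 7108 bp from the start. They are not separate checks, though they count among the 68. The same holds for the YAP peak count and the nearest YAP distance with lists of equal length, since the YAP list itself has 7709 peaks. The number of 4-factor sites was 8 with a reciprocal overlap of 50% and 9 with summits within 200 bp, peaks narrowed to 200 bp, lists of equal length or the stronger 50%. Lists of equal length left 16 JUN peaks and 5 JUN-only sites, so JUN counts depend on the length of the JUN list. With the stronger 50% of each list, JUN was present at 11 of 11 sites with YAP, TAZ or TEAD4 (100%), against 55.9% over the series. For this share the setting was added after seeing the data. The stronger 50% left 10 TAZ peaks (9 downstream), 1 upstream TEAD4 and 1 upstream JUN peak, and put the nearest TAZ and TEAD4 summits at 74210 bp. With −log10 p in place of enrichment the median percentiles were 67.6 to 79.5 over the 4 lists, inside the intervals of the reported medians. Those intervals are wide, so few values would fall outside them. By enrichment, a window of 250 kb had medians of 36.5 (YAP), 66.2 (TAZ), 49.2 (TEAD4) and 52.2 (JUN). A window of 1 Mb had 47.2, 56.6, 50.2 and 50.6. The YAP median was thus below 50 in both.

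A window of 250 kb held 6 YAP, 7 TAZ, 7 TEAD4 and 17 JUN peaks. Of these, 0, 0, 0 and 1 lay upstream and 6, 7, 7 and 16 downstream. Of its 17 sites, 4 held all 4 factors (23.5%) and 9 JUN only (52.9%), against 15.2% and 58.0% over the series. A window of 1 Mb held 22 YAP, 26 TAZ, 23 TEAD4 and 52 JUN peaks. Of these, 4, 5, 5 and 15 lay upstream, and 18 YAP peaks lay downstream. Of its 54 sites, 17 held all 4 factors (31.5%) and 25 JUN only (46.3%). With 1 list for each factor, no replicate could be left out. No paired analysis was possible because no deposited value belongs to a single replicate.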

Other observations

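The wider flanks of MYC were counted after the window had been seen. Between 0.5 and 1 Mb downstream lay 7 YAP, 6 TAZ, 6 TEAD4 and 10 JUN peaks with 5 sites of all 4 factors, and between 1 and 1.5 Mb downstream 1, 1, 1 and 3 peaks with 1 such site. Between 0.5 and 1 Mb upstream there were 3 YAP, 4 TAZ, 3 TEAD4 and 9 JUN peaks with 2 such sites. The first 500 kb downstream, with 9 sites of all 4 factors, held more peaks of every list than any of the other 7 stretches of 500 kb within 2 Mb of the start.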
